A study of Mus musculus with 36 samples.

Results

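Histone deacetylases (HDACs) remove acetyl groups from the lysines of histone tails and so favour closed chromatin, and drugs that block them shift the transcription of many genes in either direction. Cpd-60 is a benzamide that binds slowly and is selective for HDAC1 and HDAC2, the catalytic subunits of the Sin3, NuRD and CoREST corepressor complexes. SAHA (vorinostat) is a hydroxamic acid that binds fast and also inhibits other HDACs. The nucleus accumbens (NAc), in the ventral striatum, is built mainly of GABAergic medium spiny neurons and takes part in reward and mood. The comparison described here asks which transcripts in the NAc separated animals that had received one drug from animals that had received the other.

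The comparison holds the 6 NAc arrays of Cpd-60 and SAHA, 3 pools each, out of 36 arrays in the series. Adult male C57BL/6 mice received 10 daily intraperitoneal injections and the tissue was taken 1 h after the last one. The Cpd-60 group received 45 mg/kg in 7.5 mL/kg and the SAHA group 25 mg/kg in 5 mL/kg, so neither dose nor injected volume was matched between the drugs. The 3 vehicle pools (saline, PEG-400 and DMSO, at 7.5 mL/kg) served as reference levels and shared in the estimate of the spread. Each pool joined RNA of 2 mice and whole dissected tissue was measured. The mice came from Jackson and Taconic, and no source used here ties a vendor to a pool.

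All values are log2 quantile-normalized probe intensities on Illumina MouseWG-6 BeadChips, so that a difference of 1 is a doubling. A probe was called when its Cpd-60 minus SAHA difference reached an unadjusted p under 0.05 by limma and at least 1.2-fold (0.263 on the log2 scale). In whole tissue, fewer cells of a type and less RNA per cell cannot be told apart. The arrays carried the striatal signature that the label calls for. Over the Cpd-60, SAHA and vehicle arrays of the 3 regions, 20 of 25 medium spiny neuron probes were higher on every NAc array than on any prefrontal cortex (PFC) or hippocampus (HIP) array, and Ppp1r1b, the dopamine-regulated phosphoprotein DARPP-32, lay between 11.69 and 12.77 in the NAc and at most at 9.13 in the PFC.

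The arrays separated first by BeadChip. Pools 1 and 2 of Cpd-60 and of vehicle and pool 1 of SAHA lay on BeadChip 1, and pool 3 of Cpd-60 and of vehicle and pools 2 and 3 of SAHA lay on BeadChip 2. The first principal component, with 53.5% of the variance, split the BeadChips with no overlap, from -19.96 to -14.39 on one and from 18.45 to 23.97 on the other. Arrays of 1 BeadChip correlated at 0.982 to 0.994 and arrays of different BeadChips at 0.961 to 0.977. The drugs were therefore unevenly spread over the BeadChips, and the fit was repeated with BeadChip as a block. Values of that fit or within a BeadChip are given for some genes, and wherever the block ended the call of a gene named below this is stated. BeadChip 1 offers 2 Cpd-60 pools against 1 SAHA pool, and BeadChip 2 the reverse. For Cpd-60 pool 2, 1 label field names other animals than its title and source do; the title was followed, which leaves its group unchanged.

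**Figure D1:**
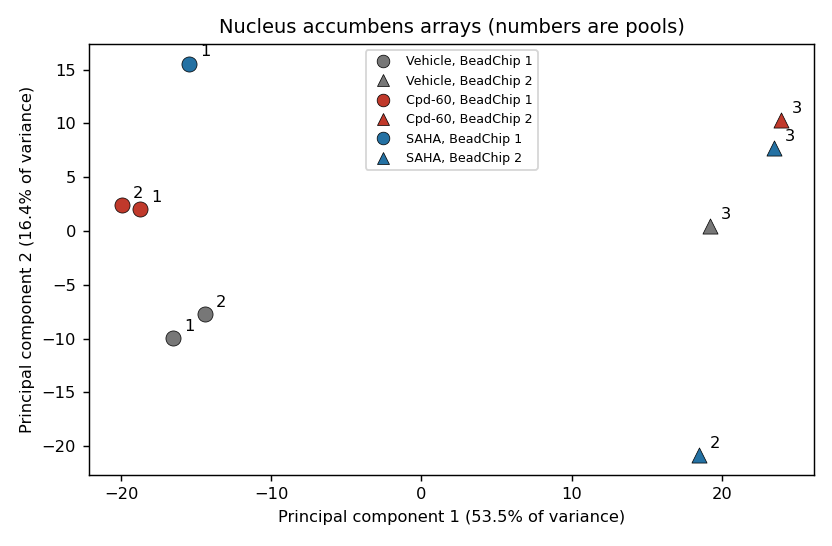
Principal components 1 and 2 of the 9 NAc arrays, from the log2 intensities of the probes tested; colour gives the treatment, the marker shape the BeadChip and the number the pool. The 5 arrays of BeadChip 1 reach at most -14.39 on component 1 and the 4 arrays of BeadChip 2 at least 18.45, whichever drug was given.

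Of 22142 probes tested, 322 (1.45%) were called. Of these, 195 (0.881%) were higher and 127 (0.574%) were lower under Cpd-60 than under SAHA. No probe reached an adjusted p under 0.05 (0%), the smallest Benjamini-Hochberg adjusted p by limma being 0.951, and 745 probes (3.36%) had an unadjusted p under 0.05. With BeadChip as a block 388 probes (1.75%) were called, 191 higher and 197 lower and 233 of them shared with the 322, and the smallest adjusted p was 0.953. All 3 Cpd-60 pools lay on one side of all 3 SAHA pools for 1766 probes (7.98%), and this was so for 177 of the 322 called, 91 higher and 86 lower. The two-sided exact permutation test of 3 pools against 3 cannot go below p = 0.1. What follows names the probes that were called and did not overlap, with the largest difference in each direction, and describes their levels; none of them passed the adjusted test.

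Under Cpd-60 the gene that stood highest over SAHA by this rule was Tsc22d3 (the glucocorticoid-induced leucine zipper, GILZ), a transcription regulator that glucocorticoids switch on in most tissues. Its level was 9.59, 10.00 and 9.60 in Cpd-60 pools 1 to 3, 8.84, 8.81 and 9.41 in the SAHA pools, and 8.76, 8.90 and 8.96 in the vehicle pools. The groups did not overlap, although SAHA pool 3 came near the lowest Cpd-60 pool. The difference was 0.71 (SE 0.17), or 1.64-fold, with a 95% interval from 0.32 to 1.11, and it was 0.73 with BeadChip as a block, 0.96 within BeadChip 1 and 0.49 within BeadChip 2. Against vehicle, in the same fit and against the same 3 vehicle pools, Cpd-60 stood at 0.86 and SAHA at 0.14. A second Tsc22d3 probe differed by 0.76 (SE 0.35) but was not called, with 1.29 within BeadChip 1 and -0.23 within BeadChip 2.

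Cebpb, a basic leucine zipper factor of the acute-phase and stress response, measured 7.80, 8.35 and 7.88 under Cpd-60, 7.57, 7.18 and 7.46 under SAHA and 7.37, 7.40 and 7.50 under vehicle. The vehicle pools lay inside the SAHA range and every Cpd-60 pool was above it, by 0.60 (SE 0.15) over SAHA and 0.58 over vehicle. Cirbp, a cold-inducible RNA-binding protein, read 8.82, 8.94 and 8.27 under Cpd-60 and 8.17, 8.11 and 7.90 under SAHA, while the vehicle pools fell between 8.13 and 8.16. Because its drug groups did not overlap, both BeadChips had to give the same direction for Cirbp. The differences were 0.71 within BeadChip 1 and 0.26 within BeadChip 2, with the single Cpd-60 pool of BeadChip 2 the lowest of its group. Cry2, a repressor of the circadian CLOCK and BMAL1 complex, was at 8.77, 8.67 and 8.34 under Cpd-60 and within 8.04 to 8.08 in the SAHA pools. The vehicle pools spanned 8.08 to 8.50 and so overlapped the Cpd-60 pools, and Cpd-60 stood 0.33 above the vehicle mean while SAHA gave -0.20. For Cry2 a second, dim probe differed by -0.09, with all Cpd-60 pools below all SAHA pools, and was not called.

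Camkk1 and Camk2n1 both act on calmodulin-dependent (CaM) kinases. Camkk1, the kinase that activates CaM kinases I and IV, measured 8.86, 9.05 and 8.64 under Cpd-60, 8.32, 8.22 and 8.39 under SAHA and 8.26, 8.37 and 8.60 under vehicle, a drug difference of 0.54 (SE 0.12). Camkk1 had the smallest unadjusted p of the 28 probes named by the rule, 0.00177 by limma, and was called in the PFC (0.30) and the HIP (0.49) as well. Camk2n1, an endogenous inhibitor of CaM kinase II, stood at 13.00, 12.63 and 12.96 under Cpd-60 and at 12.26, 12.45 and 12.46 under SAHA. The vehicle pool on BeadChip 2 read 12.77 and the other vehicle pools 12.27 and 12.29, so that vehicle overlapped both drugs, and a second Camk2n1 probe differed by 0.30 without being called. Camk1g, a CaM kinase I, was called on both of its probes (0.65 and 0.46), but its groups overlapped and it is named here after its values were seen.

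The other probes of the higher 14 belong to genes of varied roles. Rab26, a small GTPase of secretory granules and synaptic vesicles, read 8.30, 8.16 and 7.49 under Cpd-60 against 7.48, 7.35 and 7.27 under SAHA. The lowest Cpd-60 pool exceeded the highest SAHA pool by little, and the second Rab26 probe (0.51) was called with overlapping groups. Coro2b, an actin-binding coronin of brain, differed by 0.49 (SE 0.17). Lamb3, a laminin chain of basement membranes, differed by 0.56 (SE 0.15), with 7.97, 7.67 and 7.28 under Cpd-60 and 7.03 to 7.12 under SAHA. Usp3, a deubiquitinase that acts on histones H2A and H2B, was called on both probes with no overlap on either, at 0.57 (SE 0.16) and 0.43 (SE 0.12). Tmem158, a membrane protein induced by Ras signalling, and Flywch2 differed by 0.51 and 0.50.

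For Mobp and Ccl21c the probe matters. Mobp encodes a myelin protein of oligodendrocytes; the called probe measured 9.75, 9.71 and 9.39 under Cpd-60 and 8.97, 8.81 and 8.99 under SAHA, a difference of 0.69 (SE 0.19). The other 4 Mobp probes differed by -0.07 to 0.33 and none was called, and the oligodendrocyte list, in which each gene is read on its brightest probe, held 0 calls and a median of 0.03. Ccl21c encodes a lymphoid chemokine with near-identical copies (Ccl21a, Ccl21b) that such probes may not resolve. Its probes differed by 0.63 (SE 0.17) and 0.59 (SE 0.14), the Ccl21a probe by 0.63, and each of the 3 was called in the PFC and the HIP too. Ccl21c levels were low, between 6.63 and 7.70 over the drug pools. Nnt, Wdfy1 and Entpd4, which can differ between C57BL/6 substrains, differed by -0.08, 0.01 and -0.12, with no call, and the part of substrain in the Ccl21c difference was not tested.

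The 14 lower probes of the rule, which leaves out names that are only clone or locus numbers, differed by -0.36 to -0.44 (1.28-fold to 1.35-fold higher under SAHA). Among the names left out, 6430537F04 (a clone name of Grin3a) and LOC100041569 lay beyond this range at -0.54 and -0.56. Igfbp5, a secreted binding protein of insulin-like growth factors, had the largest difference of the 14. Its level was 9.71, 9.71 and 9.95 under Cpd-60, 9.96, 10.49 and 10.22 under SAHA and 10.35, 9.94 and 10.06 under vehicle. The drug groups all but touched at Cpd-60 pool 3 and SAHA pool 1, and the vehicle pools overlapped the SAHA pools. The difference was -0.44 (SE 0.15), and -0.37 with BeadChip as a block. Another Igfbp5 probe gave -0.33 and was called with overlapping groups, and the block ended the call of that probe (-0.26). A further Igfbp5 probe gave -0.22 and was not called.

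Lmo4, Yeats4, Prmt2 and Ccnd1 encode nuclear regulators. Lmo4, a LIM-domain cofactor of striatal and cortical neurons, measured 7.34, 7.25 and 7.41 under Cpd-60 and 7.61, 7.98 and 7.60 under SAHA, a difference of -0.39 (SE 0.11). A much brighter Lmo4 probe differed by 0.08 and was not called, so the probes of Lmo4 disagree. Yeats4, a reader of acetylated histone H3 in the Tip60 and SRCAP complexes, was at 9.08, 8.90 and 9.13 under Cpd-60, 9.55, 9.49 and 9.23 under SAHA and 9.32, 9.49 and 9.36 under vehicle. All Cpd-60 pools of Yeats4 were below every SAHA and vehicle pool; the difference from SAHA was -0.38 (SE 0.10), that from vehicle -0.35, and SAHA differed from vehicle by 0.03. A dimmer Yeats4 probe differed by -0.06 and was not called. Prmt2, a protein arginine methyltransferase, was called on both probes at -0.40, and Ccnd1, cyclin D1 of the G1 phase, differed by -0.37 (SE 0.14) on 1 of 3 probes, the others of Ccnd1 giving -0.20 and -0.09 without a call.

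Ppa1, the cytosolic inorganic pyrophosphatase, read 10.71, 10.62 and 11.05 under Cpd-60 and 11.27, 11.05 and 11.23 under SAHA, while the vehicle pools ran from 10.90 to 11.04. Vehicle thus lay below SAHA and inside the Cpd-60 range. The -0.39 of Ppa1 came mostly from BeadChip 1 (-0.60), with -0.09 within BeadChip 2. Nubp1, an iron-sulfur cluster assembly factor, differed by -0.37 (SE 0.12), and it was the one probe of the lower 14 called in both other regions (-0.29 in the PFC, -0.39 in the HIP). Slco1c1, a thyroid hormone transporter of brain capillaries and astrocytes, differed by -0.36, Creld2, an endoplasmic reticulum stress protein, by -0.37, Mipep, a mitochondrial matrix peptidase, by -0.37, Ppap2b (now Plpp3), a lipid phosphatase of astrocytes, by -0.37, and Muted (now Bloc1s5), a subunit of the BLOC-1 sorting complex, by -0.37. The remaining 2 were Npm3-ps1, annotated as a pseudogene (-0.36), and a septin probe whose symbol the deposited table holds in the form of a calendar date (-0.36).

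**Figure D2:**
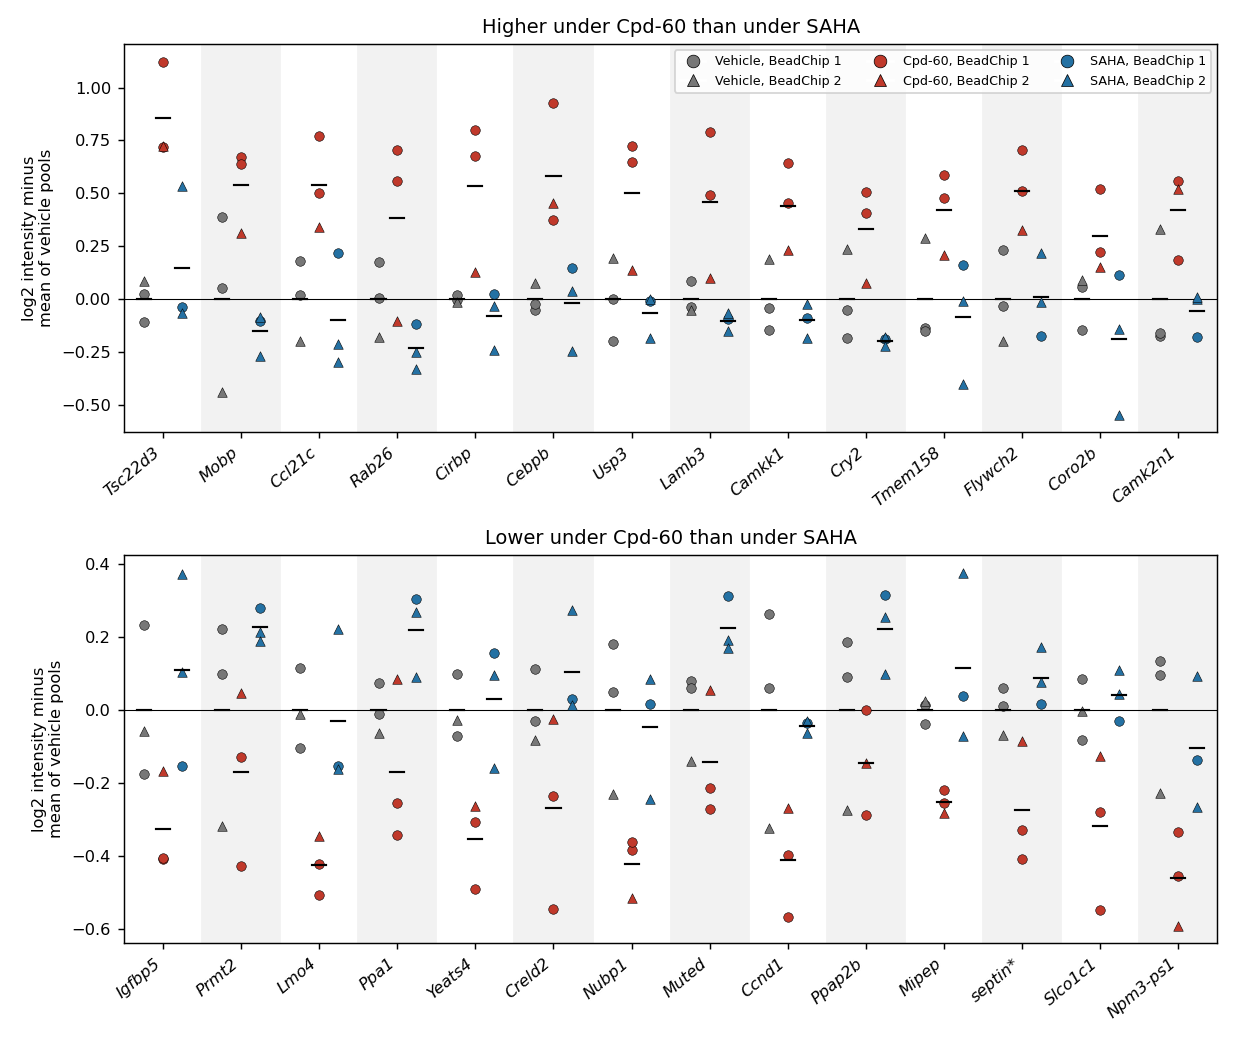
Level of each of the 28 probes named by the rule in every pool of Cpd-60 (red), SAHA (blue) and vehicle (grey), as log2 intensity minus the mean of the vehicle pools; circles are BeadChip 1, triangles BeadChip 2, and short bars group means. The 3 red points lie above the 3 blue points in the upper panel and below them in the lower panel, as the rule requires, and in the upper panel the red triangle is often the lowest red point (septin* stands for the symbol held as a date).

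Leaving out each of the 9 pools in turn kept the direction of all 28 differences. This had to be so, since the rule took only probes whose drug groups did not overlap. A call was kept in each of these 9 fits for 17 of the 28. The losses were most frequent without SAHA pool 2, where 9 calls were lost, and Ccnd1 and Prmt2 were lost in 5 of the fits each. With BeadChip as a block all 28 stayed called. By Tukey's test after the one-way analysis that the methods describe, 16 of the 28 passed, and Tsc22d3, Cebpb, Cirbp, Cry2, Camkk1 and Yeats4 were among them.

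Among the 32 gene lists examined, genes induced by glucocorticoids form the list with the most calls in one direction. Gene families without a list, such as the core histones, were not counted. Glucocorticoid hormones act through a nuclear receptor that switches on a shared set of fast targets in many tissues, among them Tsc22d3, Sgk1 and Fkbp5. Of 30 genes on the list 28 were tested; 5 were called higher under Cpd-60 and 0 lower, where 0.944% of all 15044 genes were called higher and 0.698% lower. The median difference was 0.20 against -0.01 over all genes, and 85.7% of the 28 lay above 0 against 47.1% of all genes. The study had itself picked several of these genes from the same arrays (Tsc22d3, Sgk1, Mfsd2, Sult1a1, Agxt2l1 and Per2), so the list is not independent evidence of its direction.

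Next to Tsc22d3, the called members were Sgk1, Fkbp5, Klf9 and Plin4 (S3-12 on the array). Sgk1, a kinase that regulates ion transport, measured 11.09, 10.94 and 10.05 under Cpd-60 and 10.23, 10.08 and 9.85 under SAHA, with vehicle at 9.90 to 9.99. Cpd-60 pools 1 and 2 stood well above every SAHA pool and pool 3 lay inside the SAHA range, for a difference of 0.64 (SE 0.24). Fkbp5, a co-chaperone that restrains the glucocorticoid receptor, read 7.78, 7.97 and 7.33 under Cpd-60 and 7.31, 7.36 and 6.99 under SAHA, and Klf9, a Krüppel-like factor, 11.21, 11.62 and 11.34 against 11.01, 11.27 and 10.74. Their differences were 0.48 (SE 0.16) and 0.38 (SE 0.15), and that of the lipid droplet protein Plin4 was 0.38 (SE 0.13). Fkbp5, Klf9 and Plin4 each had overlapping groups.

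Members that were not called included large differences that rested on Cpd-60 pools 1 and 2 or on pool 2 alone. Lcn2, the acute-phase lipocalin, measured 9.93 in Cpd-60 pool 2 and 6.49 to 6.82 in the other 5 drug pools, so its difference of 1.31 had an SE of 0.72. Cdkn1a, the p21 inhibitor of the cell cycle, was at 8.33, 9.27 and 7.39 under Cpd-60 and 7.44 to 7.66 under SAHA on its brightest probe (0.82, SE 0.38, not called), while its 2 dimmer probes were called at 0.63 and 0.74. Ddit4 (0.57), Mfsd2 (0.57), Pnpla2 (0.53) and Nfkbia (0.48) also missed the threshold. At the low end were Per2 (-0.08) and Bcl6 (-0.16).

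The size of the list's shift followed the pools. Its mean level was 8.39, 8.77 and 8.19 in the Cpd-60 pools, 8.16, 8.14 and 8.13 in the SAHA pools and 8.12, 8.13 and 8.05 in the vehicle pools. The highest was Cpd-60 pool 2, the pool with the high Lcn2, and Cpd-60 pool 3 was just above SAHA. Without Cpd-60 pool 2, 1 of 28 was called and the median was 0.14, and without Cpd-60 pool 3, 15 were called and the median was 0.32. Without Cpd-60 pool 1 or SAHA pool 1, 3 were called each, and without SAHA pool 3, 2. With BeadChip as a block 6 were called and the median was 0.19. With the drug arrays alone 3 were called, with neqc background correction 7 and with all 36 arrays 8. By Tukey's test 1 was called, Tsc22d3, and Sgk1, Fkbp5, Klf9 and Plin4 did not pass. Within BeadChip 1 the median was 0.37 and within BeadChip 2 0.01. Set against the shared vehicle pools, the list's median stood at 0.31 under Cpd-60 and at -0.01 under SAHA. In the reactive astrocyte and acute-phase list, whose mean level was 7.76 in Cpd-60 pool 2 and 7.08 to 7.26 in the other 5 drug pools, 0 of 11 genes were called; the part of this pool's acute-phase level in the glucocorticoid shift was not tested.

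**Figure D3:**
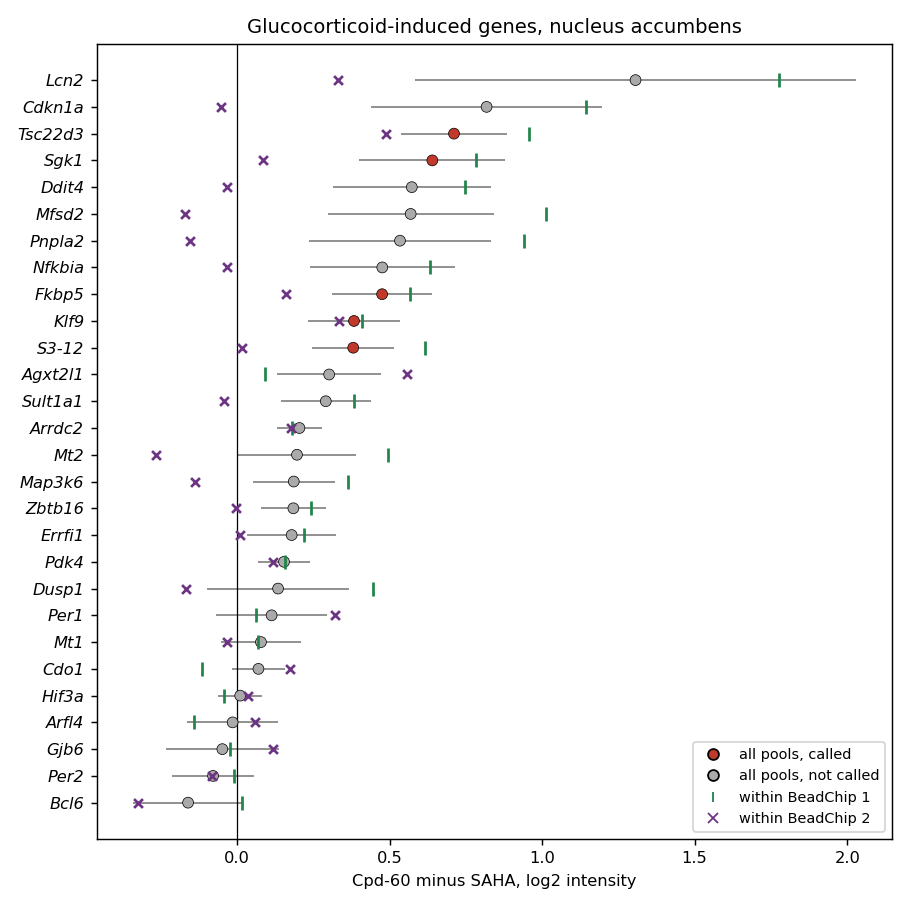
Cpd-60 minus SAHA difference of the 28 glucocorticoid-induced genes tested, in log2 intensity with its SE; red points were called, green bars give the difference within BeadChip 1 and purple crosses that within BeadChip 2. Of the 28 points 24 lie right of 0, and for Cdkn1a, Ddit4, Mfsd2, Pnpla2 and Nfkbia the value within BeadChip 2 is below 0 while that within BeadChip 1 is at least 0.63.

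The promoters of the called members are shown because the glucocorticoid receptor binds DNA through elements built of AGAACA half-sites (TGTTCT on the other strand). Promoter windows from RefSeq (GRCm38.p6, 250 bases before to 50 after an annotated start) were searched on both strands for this half-site, the circadian E-box CACGTG and the cyclic AMP response element TGACGTCA. The 7 genes Tsc22d3, Sgk1, Fkbp5, Klf9, Plin4, Cry2 and Cebpb have 14 such windows. A half-site was in 4 of them (1 of Tsc22d3 and 3 of Sgk1), an E-box in 2 and a cyclic AMP element in 0. Among the 32851 windows of that length that were searched, the shares were 19%, 7.15% and 1.79%. Among the 12289 windows of genes tested they were 13%, 9.48% and 2.96%, but only 9550 of 15849 symbols had a window. The 7 genes were picked, so their windows are given as a description. The 3 windows carry the most matches of their gene and follow, read 5′ to 3′ on the gene's strand, with half-sites and E-boxes in capitals. The Tsc22d3 window is chrX:140600473-140600772 (minus strand), the Sgk1 window chr10:21993640-21993939 (plus strand) and the Fkbp5 window chr17:28486100-28486399 (minus strand).
Tsc22d3: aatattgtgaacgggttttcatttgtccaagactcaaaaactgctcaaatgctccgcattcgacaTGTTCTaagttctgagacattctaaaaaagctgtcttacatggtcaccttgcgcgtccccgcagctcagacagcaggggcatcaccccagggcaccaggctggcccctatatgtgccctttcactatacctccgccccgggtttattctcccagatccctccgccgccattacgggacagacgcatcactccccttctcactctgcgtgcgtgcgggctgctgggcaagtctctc
Sgk1: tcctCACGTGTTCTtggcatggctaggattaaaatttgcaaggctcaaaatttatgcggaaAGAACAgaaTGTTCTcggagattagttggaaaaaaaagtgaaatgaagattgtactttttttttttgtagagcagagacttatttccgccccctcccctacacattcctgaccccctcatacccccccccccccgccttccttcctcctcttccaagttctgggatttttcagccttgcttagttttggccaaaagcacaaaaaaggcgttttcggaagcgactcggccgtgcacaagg
Fkbp5: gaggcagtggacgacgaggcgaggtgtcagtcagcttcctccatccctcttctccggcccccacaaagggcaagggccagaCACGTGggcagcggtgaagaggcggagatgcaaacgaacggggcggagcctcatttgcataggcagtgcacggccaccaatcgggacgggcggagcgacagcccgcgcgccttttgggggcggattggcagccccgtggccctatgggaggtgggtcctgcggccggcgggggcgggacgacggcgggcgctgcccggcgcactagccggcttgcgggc
The Sgk1 window holds 3 half-sites and an E-box that overlaps one of them, the Tsc22d3 window 1 half-site and the Fkbp5 window an E-box. Tsc22d3 has 3 windows and Sgk1 6, and the windows of Klf9, Plin4, Cry2 and Cebpb hold none of these letters.

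Medium spiny neuron genes leaned the same way with fewer calls. Of 25 tested, 2 were called higher under Cpd-60 and 0 lower, where 0.944% of all genes were called higher and 0.698% lower. Of the 25, 80% lay above 0 against 47.1% of all genes, and the median was 0.21 against -0.01. Scn4b, the sodium channel beta4 subunit of striatal neurons, measured 12.15, 11.64 and 11.36 under Cpd-60 and 11.18, 11.39 and 10.78 under SAHA (0.60, SE 0.21). Pde10a, the striatal phosphodiesterase, read 8.91, 8.57 and 8.29 against 8.32, 8.21 and 7.96 (0.43, SE 0.16). Neither Scn4b nor Pde10a passed by Tukey's test. Drd2, the D2 dopamine receptor of indirect pathway neurons, differed by 0.44 (SE 0.22) and Drd1a, its direct pathway counterpart, by -0.03, neither called. Against the shared vehicle pools the median of the list stood at -0.03 under Cpd-60 and at -0.24 under SAHA.

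The medium spiny difference also followed single pools. The mean level of the medium spiny list was 10.52, 10.30 and 10.18 under Cpd-60 and 10.22, 10.25 and 9.93 under SAHA, with Cpd-60 pool 1 the highest and SAHA pool 3 the lowest. Without SAHA pool 3 the median was 0.06 with 0 calls, and without Cpd-60 pool 1 it was 0.11 with 0 calls; leaving out Cpd-60 pool 3, SAHA pool 1 or SAHA pool 2 gave 6, 6 and 5 calls higher. Within BeadChips it was 0.18 and 0.03. The septal, hypothalamic and subpallial neighbour genes, which mark tissue next to the NAc, ran from 7.47 to 7.84 under Cpd-60 and from 7.58 to 7.96 under SAHA, with 0 of 14 called; SAHA pool 3, lowest for medium spiny genes, was the highest for these. The part of the dissection in the medium spiny difference was not tested.

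Signalling and channel lists gave single calls. In the glutamate receptor and scaffold list of 36 genes, Dlg4 (PSD-95, the main scaffold of excitatory synapses) was higher under Cpd-60 at 9.39, 9.23 and 9.07 against 8.84, 8.77 and 8.84, a difference of 0.42 (SE 0.12). In the same list Grin3a (6430537F04 on the array), an NMDA receptor subunit, was lower at 8.69, 8.99 and 9.37 against 9.53, 9.53 and 9.63, a difference of -0.54 (SE 0.18). Neither had overlapping drug groups. The vehicle pools ran from 8.95 to 9.33 for Dlg4 and from 8.83 to 9.37 for Grin3a, so that for both genes vehicle overlapped Cpd-60 and the SAHA pools stood apart from vehicle. Kcnf1, a modifier subunit of potassium channels, was called higher at 0.27 (SE 0.10). The GABA list (17 tested), the synaptic vesicle list (37) and the neurotrophin list (11) held 0 calls, with medians of 0.09, 0.05 and -0.04.

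Among the genes of the drugs' own target family, Hdac11, the class IV HDAC, was the one HDAC gene called of 10 tested, at 10.06, 9.93 and 9.54 under Cpd-60 and 9.56, 9.13 and 9.31 under SAHA (0.51, SE 0.17); with BeadChip as a block it was 0.38. Hdac2 differed by -0.22, with a 95% interval from -1.05 to 0.61, and Hdac3 by -0.06 (-0.29 to 0.16). Hdac1 was not among the probes tested. Of 22 corepressor genes tested, Tbl1xr1 was called (0.42, SE 0.14). It belongs to the NCoR complex, which is not among the Sin3, NuRD and CoREST complexes named at the opening. Among cell-cycle inhibitor, Gadd45 and linker histone genes, which HDAC inhibitors are known to induce in many cells, 1 of 11 was called. This was Txnip, an inhibitor of thioredoxin (8.43, 8.90 and 7.83 against 7.92, 7.89 and 7.57, a difference of 0.60, SE 0.25). That count reads each gene on its brightest probe. Dimmer probes of Cdkn1a were called, as given above, and so was a Gadd45g probe (0.41), with overlapping groups.

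In the other lists few genes or none were called. Immediate early genes, which report recent neuronal activity, had 0 calls of 20 and a median of -0.03, with Egr1 lowest at -0.47. Of 15 clock genes Cry2 alone was called, beside Npas2 at 0.40 and Bhlhb2 at -0.42. Heat shock and chaperone genes had the lowest median (-0.11), and Hspb1, a small heat shock protein, was the 1 of 21 called, at 6.94, 7.02 and 6.90 under Cpd-60 against 7.09, 7.33 and 7.23 under SAHA (-0.27, SE 0.08). With BeadChip as a block Hspb1 was at -0.25, under 1.2-fold, and the list held 0 calls. Hsp90aa1, at -0.76 the largest of that list, followed the BeadChips: it read 7.54 to 7.60 on BeadChip 1 and 9.39 to 9.77 on BeadChip 2 in the drug pools, and with BeadChip as a block its difference was -0.18. Rpl4 was called lower of 58 ribosomal protein genes (-0.29), Uqcrc1 higher of 68 oxidative phosphorylation genes (0.28) and Cfl1, cofilin, higher of 31 actin and tubulin genes (0.46). The block ended the call of Uqcrc1 (0.21), and in that fit the oxidative phosphorylation list held 1 lower call, Ndufa10 (-0.30).

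Markers of other cells were not called in most lists. The astrocyte (14 genes), oligodendrocyte (14), choroid plexus and meningeal (18), cortical glutamatergic (16), midbrain dopamine (5), blood (5), cholesterol synthesis (18) and proteasome (33) lists held 0 calls. With BeadChip as a block the cortical list held 1 lower call (Zfp312, -0.32), the cholesterol list 1 (Fdps, -0.35) and the synaptic vesicle list 1 (Syt4, -0.28). Cx3cr1, the fractalkine receptor of microglia, was the 1 of 15 microglial genes called (8.36, 8.06 and 8.66 against 8.90, 8.59 and 8.66; -0.35, SE 0.14), and with BeadChip as a block it narrowly missed the threshold. In the endothelial and mural list of 18, Slco1c1 was called lower and Myl9, a myosin light chain of smooth muscle, higher (0.27, SE 0.12); the block ended the call of Myl9 (0.21). Pde10a was also the 1 call of 31 genes of dopamine, opioid and cyclic nucleotide signalling, and Igfbp5 the 1 of 13 of the insulin-like growth factor system. When each pool was left out in turn, Dlg4 kept its call in all 9 fits and Rpl4 and Grin3a lost theirs in 1. Txnip and Myl9 lost theirs in 6 and Cx3cr1 in 7. By Tukey's test the calls of Grin3a, Txnip, Myl9 and Cx3cr1 were lost, and those of Dlg4 and Rpl4 were kept. With the drug arrays alone the calls of Txnip and Cx3cr1 were lost.

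**Figure D4:**
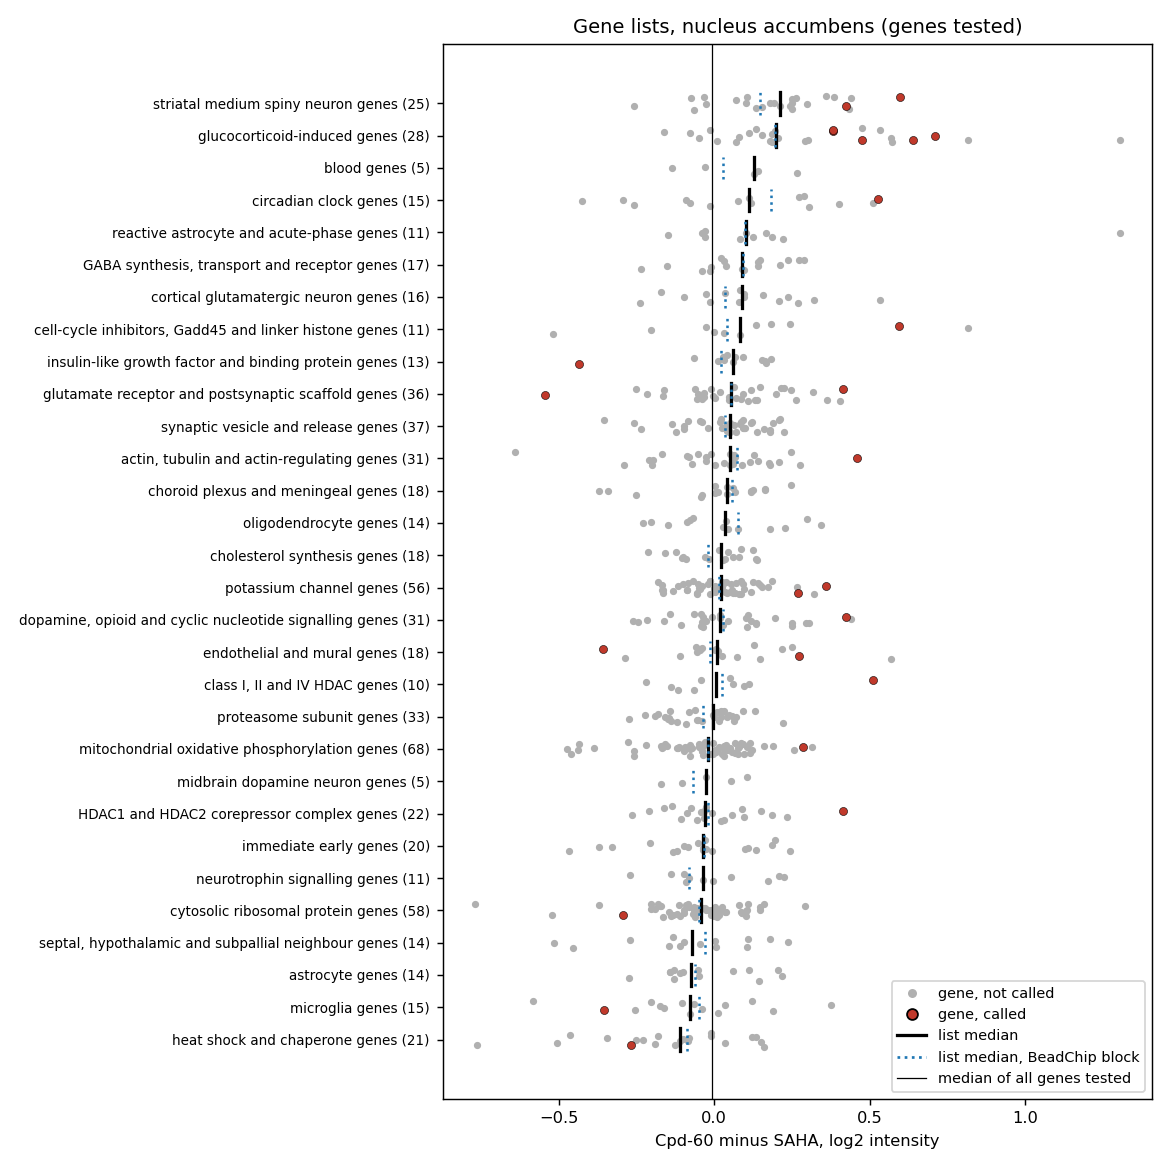
Cpd-60 minus SAHA difference, in log2 intensity, of every gene tested in each gene list, ordered by list median (black bar; blue dotted bar, with BeadChip as a block); called genes are red and the thin line is the median of all genes tested. The glucocorticoid-induced and medium spiny neuron lists have the highest medians, 0.20 and 0.21, and the heat shock list the lowest, -0.11.

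The 12 genes that the study took from these arrays for closer work were also compared, and 3 of them were called between the drugs: Tsc22d3 and Sgk1 higher and Igfbp5 lower. The rest missed the threshold, with 95% intervals that include 0. Agxt2l1 (now Etnppl), a phospholyase of astrocytes, was at 7.89, 8.05 and 8.27 under Cpd-60, 7.87, 7.36 and 8.07 under SAHA and 7.22 to 7.26 under vehicle. Both drugs thus stood above every vehicle pool for Agxt2l1, and their difference was 0.30 (-0.09 to 0.69). Mfsd2 differed by 0.57 (-0.05 to 1.19), Sult1a1 by 0.29 (-0.05 to 0.63), Cacng5 by 0.25 (-0.19 to 0.69) on its brightest probe, Usp54 by 0.15 (-0.08 to 0.39), Qdpr by 0.05 (-0.42 to 0.52) and Per2 by -0.08 (-0.39 to 0.23). Another Cacng5 probe was called at 0.38. Mef2c differed by -0.17 (-0.35 to 0.01).

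CI-994, another HDAC inhibitor and, like Cpd-60, a benzamide, had been given at 10 mg/kg in 5 mL/kg. When all 36 arrays were normalized together, its mean Tsc22d3 level in the NAc was 8.90, with 9.75 for Cpd-60, 9.04 for SAHA and 8.90 for vehicle. For Cebpb the means were 7.44 (CI-994), 8.03 (Cpd-60), 7.42 (SAHA) and 7.44 (vehicle), and for Cirbp 8.05, 8.70, 8.09 and 8.17. For Yeats4 they were 9.32, 9.06, 9.44 and 9.41. The doses of the 3 drugs differ, so these levels are set side by side without a comparison.

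The same contrast was read in the PFC and HIP of the same pools of mice, whose arrays had the same layout over BeadChips. In the PFC 309 of 21513 probes (1.44%) and in the HIP 2063 of 22275 (9.26%) were called between the drugs. Of the 322 NAc calls, 316 were also tested in the PFC and 252 (79.7%) had the same direction there, against 60.3% of all probes; in the HIP it was 257 of 313 (82.1%), against 54.3%. Called in the same direction were 30 in the PFC and 87 in the HIP. Tsc22d3 differed by 0.42 in the PFC and 0.38 in the HIP, and Sgk1 by 0.53 and 0.87, each called in both. Rab26 (0.33 and 0.20) and Flywch2 (0.49 and 0.22) were called in the PFC and fell short of 1.2-fold in the HIP. Mobp was called in the HIP (0.75) and not in the PFC (0.23).

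Other named probes were near 0 in those regions. Lamb3 differed by -0.01 in the PFC and 0.10 in the HIP, Usp3 by 0.10 and 0.12, Lmo4 by 0.09 and 0.00, and Ppa1 by -0.10 and 0.04. To compare regions, the drug difference in the NAc was taken minus its mean in the PFC and HIP, in a limma fit with the pool as a random block. This contrast had an unadjusted p under 0.05 by limma for 709 of 18610 probes (3.81%), and after Benjamini-Hochberg adjustment for 0, the smallest adjusted p being 0.98. The 28 named probes were chosen for large differences in the NAc, which favours this contrast, so their values are given as a description. The 7 of them with an unadjusted p under 0.05 follow. For Lamb3 the difference between regions was 0.52 (SE 0.13), for Usp3 0.46 (SE 0.16), for Cry2 0.43 (SE 0.18), for Camk2n1 0.40 (SE 0.16), for Lmo4 -0.44 (SE 0.14), for Ppa1 -0.36 (SE 0.11) and for the septin probe -0.32 (SE 0.12).

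**Figure D5:**
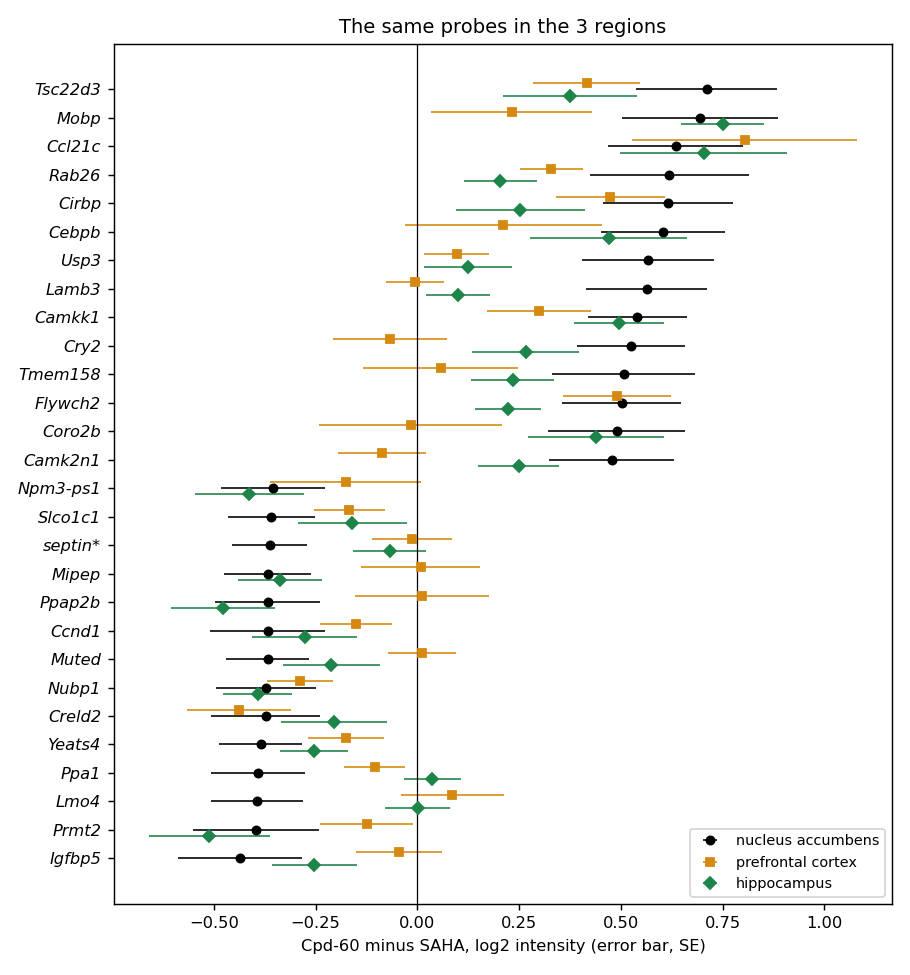
Cpd-60 minus SAHA difference of the 28 named probes in the NAc (black), PFC (orange) and HIP (green), in log2 intensity with its SE. Tsc22d3, Ccl21c, Rab26, Cirbp, Camkk1 and Flywch2 lie right of 0 in all 3 regions, while Lamb3, Usp3, Lmo4 and Ppa1 lie near 0 outside the NAc.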

How the data were processed

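RNA of NAc tissue was hybridised to Illumina MouseWG-6 BeadChips. The authors deposited, for 45281 probes, non-normalized intensity values and detection p-values per array; their own normalization was quantile with a median baseline in GeneSpring. Here the deposited intensities were quantile-normalized over the 27 Cpd-60, SAHA and vehicle arrays, floored at 1 and log2-transformed. A probe was tested where the deposited detection p-value was at most 0.2 on all 3 arrays of a group. The 9 NAc arrays were fitted by limma 3.58.1 in R 4.3.3 (lmFit, eBayes), and p-values were adjusted by Benjamini-Hochberg over all probes tested. The pools are the replicates, and their number limits the precision. Symbols are those of the deposited table, of which 21929 of 30869 matched RefSeq. A gene with several probes was read in the lists on its brightest. Named were the 14 largest differences in each direction among called probes whose groups did not overlap, with 1 probe per gene and names that are only clone or locus numbers left out, then the study's genes, called list members and list extremes. The members and lists were chosen with earlier results of these data known. The alternatives were other normalization, filters, blocks, sample sets and Tukey's test, and each pool left out. The scripts were tested on simulated data. Some genes are not reported here.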

Additional observations from a re-analysis of the deposited data

How the results depend on the processing

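No setting gave a probe with an adjusted p under 0.05 for the drug difference. The 322 calls became 747 with neqc background correction (407 higher, 340 lower), 311 with a detection p of at most 0.01, 368 with no filter, 388 with BeadChip as a block, 237 with the drug arrays alone, 336 with all 36 arrays and 84 by Tukey's test (41 higher, 43 lower). The 745 probes with an unadjusted p under 0.05 became 747, 461, 1680, 1036, 478, 944 and 388 in the same order. Leaving out a pool gave 208 (without Cpd-60 pool 1) to 1660 calls (without Cpd-60 pool 3) and 439 to 2417 probes with an unadjusted p under 0.05; without SAHA pool 1 there were 1295 calls. Without Cpd-60 pool 3 the drugs share BeadChip 1 alone, and without SAHA pool 1 they share BeadChip 2 alone. BeadChip as a block with a pool left out, chosen after seeing the data, gave 332 to 1243 calls and 864 to 1713 with an unadjusted p under 0.05, with 1197 and 1500 without SAHA pool 1 and 835 and 1619 without SAHA pool 2. There Hba-a1 turned to -0.39 without SAHA pool 1, and Actr3 and Gria3 to 0.32 and 0.31 without SAHA pool 2; the cause was not tested. The difference between regions was rerun with neqc, with BeadChip as a block and without each drug pool, and had 0 adjusted calls in these except 8 without Cpd-60 pool 3, and its 709 unadjusted became 292 to 3057 with a pool left out.

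With the pool number as a replicate block 666 probes were called (400 higher, 266 lower), 1430 with an unadjusted p under 0.05 and 0 after adjustment. Deviations of same-numbered Cpd-60 and SAHA pools correlated at 0.442, -0.159 and 0.712, so the numbers were not taken to pair the pools.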
